A study of Mus musculus with 6 samples.

Results

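The 8 genes described here encode receptors that steer lymphocytes: Ccr7, S1pr1, Cxcr4, Cxcr5, Cxcr3, Cxcr6, Ccr2 and Ccr6. They were chosen by name as receptors of lymph node homing, egress and tissue entry, and all 8 were found by Ensembl identifier among the 54532 gene rows of the deposited table. The table comes from RNA sequencing of CD4 T cells taken from C57BL/6 mice, out of spleen and lymph nodes, with 3 libraries labelled Prmt5 WT (WT 1, WT 2 and WT 4) and 3 labelled Prmt5 KO (KO 1, KO 4 and KO 5). Per the labels the WT genotype is iCD4-PRMT5fl/fl and the KO genotype iCD4-PRMT5 delta/delta, the latter a deletion of the gene for the arginine methyltransferase PRMT5, whose floxed alleles the WT animals carry intact. The sources used here do not say what iCD4 stands for, how old the animals were or whether a library pools animals. The treatment label of all 6 libraries names anti-CD3 and anti-CD28 for 48 h, whereas their titles and descriptions say rest. The activation state is therefore shared by both groups and uncertain. A code in the descriptions places WT 1, WT 2 and KO 1 in library series 22, and WT 4, KO 4 and KO 5 in series 24.

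Naive T cells enter lymph nodes with adhesion molecules and the chemokine receptor CCR7, scan them, and leave along a gradient of sphingosine 1-phosphate sensed by S1PR1. Activation usually lowers S1PR1 and CCR7 for a time and adds receptors that direct cells elsewhere, such as CXCR5 to B cell follicles and CXCR3, CXCR6, CCR2 or CCR6 to inflamed tissue. All are G protein-coupled receptors that signal to a large part through Gi proteins and are turned down by GRK kinases, arrestins and RGS proteins. Several are also carried by other leukocytes: CCR2 marks classical monocytes, and CXCR5, CCR6 and CCR7 are found on B cells.

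Values are robust FPM, that is fragments counted per gene, divided by robust size factors and put on a scale of 1e6. A difference is KO minus WT on the log2(robust FPM + 0.5) scale with library series as a term in the fit, unless a single series is named. The libraries summed to between 867137 and 961245 robust FPM, and their sequencing depth is unknown. Prmt5, the gene that checks the labels, was 34.9 to 43.9 in WT and 21.5 to 24.4 in KO, and its log2 difference of -0.78 missed the threshold (limma adjusted p = 1). The cell type label was met by the T cell markers, with 11 of 11 at a mean of at least 1 and a summed level of 3380 to 4301 in WT and 3630 to 4376 in KO. Markers of CD8 T and NK cells summed to 131.5 to 170.5 in WT and 141.1 to 182.4 in KO. Klrk1 was the most abundant of them at 31.7 to 46.3, with Cd8a at 0.2 to 2.1 and Cd8b1 at 7.1 to 8.7. Markers of B cells summed to 498.9 to 516.3 in WT and 365.9 to 738.3 in KO. Most of that sum was Ighm at 308.0 to 665.2, without which it was 45.6 to 77.8. Cd79a was at 0.2 to 0.7, Cd79b at 4.3 to 7.4 and Cd22 at 5.3 to 9.2. Myeloid markers were present in every library and uneven between them, as described below beside Ccr2. WT 1 stood apart, with the lowest value of 46% of the 14944 genes tested. Because whole samples were sequenced, fewer cells of a type and less RNA per cell cannot be told apart.

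The 8 genes lie on 6 chromosomes of GRCm38, all coordinates being from GENCODE M21. Ccr7 is at chr11:99144196-99155077 (minus strand), S1pr1 at chr3:115710433-115715072 (minus strand), Cxcr4 at chr1:128588199-128592293 (minus strand) and Cxcr3 at chrX:101731535-101734269 (minus strand). Ccr6 is at chr17:8236043-8257141 (plus strand). The other 3 are on chromosome 9, Cxcr5 at chr9:44511787-44561877 (minus strand), Cxcr6 at chr9:123806475-123811760 (plus strand) and Ccr2 at chr9:124101950-124113557 (plus strand). Cxcr6 lies wholly inside an intron of Fyco1, which runs on the opposite strand and measured 115.4 to 136.3 over the libraries. Cxcr5 shares 110 of its 3332 exon bases with Bcl9l on the opposite strand, a gene at 16.8 to 30.3. The library kit marks strand, per the labels' protocols, but the sources used here do not say whether counting used it, so reads of Cxcr6 and Cxcr5 and of these partners may not be separated fully.

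RefSeq promoter entries (GRCm38.p6) were found for 5 of the 8 genes. The 250 bases before the start are shown for the 3 of them whose window holds at most 2 exon bases in GENCODE, since the series title names NFAT. Capitals mark each match to GGAAA, the core that NFAT proteins recognise, or to its reverse complement TTTCC. The windows are chr1:128592300-128592549 (minus strand) for Cxcr4, chr9:123806227-123806476 (plus strand) for Cxcr6 and chr17:8235793-8236042 (plus strand) for the first Ccr6 start.
Cxcr4: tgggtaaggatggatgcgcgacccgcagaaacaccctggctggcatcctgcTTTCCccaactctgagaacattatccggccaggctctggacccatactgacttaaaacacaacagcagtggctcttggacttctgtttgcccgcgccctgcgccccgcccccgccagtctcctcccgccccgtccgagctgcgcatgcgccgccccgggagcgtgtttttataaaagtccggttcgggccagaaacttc
Cxcr6: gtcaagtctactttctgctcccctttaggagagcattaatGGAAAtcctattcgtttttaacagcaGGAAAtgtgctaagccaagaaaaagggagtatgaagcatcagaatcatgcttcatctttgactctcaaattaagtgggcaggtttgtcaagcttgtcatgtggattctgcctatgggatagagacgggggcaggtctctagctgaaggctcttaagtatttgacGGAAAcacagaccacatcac
Ccr6: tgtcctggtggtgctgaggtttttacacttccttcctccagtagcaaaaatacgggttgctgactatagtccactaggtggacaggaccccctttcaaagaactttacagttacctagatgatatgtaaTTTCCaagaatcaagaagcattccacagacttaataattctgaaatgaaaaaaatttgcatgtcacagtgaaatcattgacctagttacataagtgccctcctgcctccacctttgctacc
Cxcr6 holds 3 matches to the NFAT core, and Cxcr4 and Ccr6 hold 1 each. A match on either strand stands in 55.6% of 32851 RefSeq windows of this length. The letters CACCC or GGGTG, a core bound by KLF proteins, stand in 52.0% of the windows, with 1 match in Cxcr4 and 0 in the Cxcr6 and Ccr6 windows. A match describes letters, not a bound site.

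Compared per kb of exon, the receptors of naive and recirculating cells were the most abundant. S1pr1 led with 149.6 ± 14.3 robust FPM per kb (SD, n = 6 libraries), followed by Ccr7 with 103.4 ± 24.2 and Cxcr6 with 44.9 ± 7.42. Then came Cxcr4 with 30.7 ± 4.23, Cxcr3 with 24.2 ± 5.50, Ccr2 with 11.7 ± 5.33, Cxcr5 with 7.54 ± 1.03 and Ccr6 with 2.34 ± 0.562 robust FPM per kb. The ranges over the libraries did not overlap between Ccr7 and Cxcr6 or between Cxcr5 and Ccr6. They overlapped between the other 5 pairs of neighbours, although each of these pairs but Ccr2 and Cxcr5 kept its order in 6 of 6 libraries. In WT 1, Ccr2 at 6.63 per kb was below Cxcr5 at 7.203 per kb. The order depends on the exon lengths taken from GENCODE, which reach 6.76 kb for Ccr2 and 1.73 to 3.33 kb for the others.

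**Figure D1:**
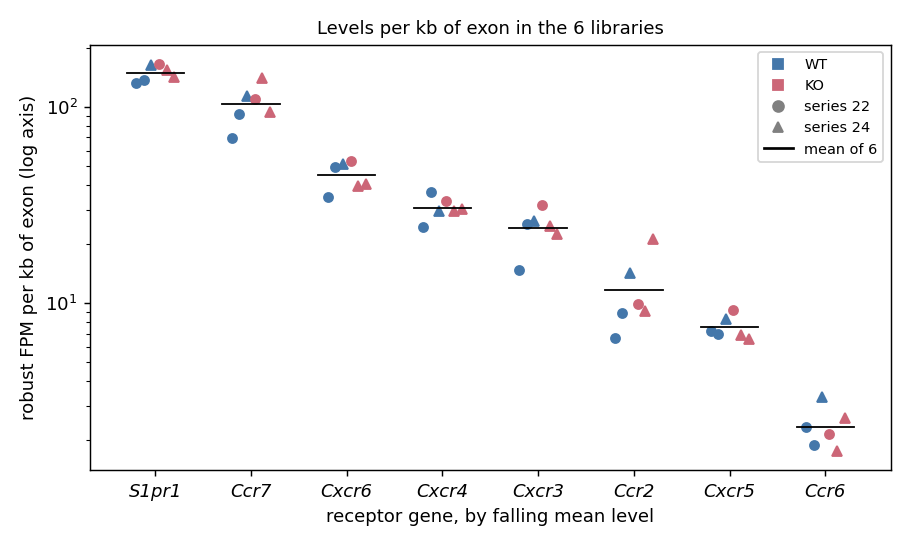
Level of each receptor gene per kb of exon (robust FPM per kb, log axis) in the 6 libraries, ordered by the mean (black line), with colour for genotype and shape for library series. S1pr1 and Ccr7 sit between 69.4 and 165.9 per kb, and Ccr6 between 1.77 and 3.32.

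No receptor gene passed the test of KO against WT. Limma called 0 of the 8 members, beside 0% of the 14944 genes tested, with an adjusted p of 1 for each member. At an unadjusted p under 0.05 there were 0 members, beside 0.248% of all genes. KO and WT values overlapped for 8 of 8 members, where they did not overlap for 2.88% of all genes. The log2 difference was positive for 6 members and negative for 2, with a median of 0.077, beside a median of 0.014 and 54.4% positive over all genes. Scaled to the ERCC spike-ins instead, the median of all genes moved to -0.20, and the differences of S1pr1, Cxcr4, Cxcr5 and Ccr2 became negative (-0.15, -0.14, -0.18 and -0.045). The 95% intervals stayed within a 2-fold difference for 8 of 8 members and within a 1.5-fold difference for 4, beside 85.1% and 60.1% of all genes. The design text calls the libraries biological replicates but ties none to an animal. The p-values here therefore gauge library-to-library spread, which may be technical in part. For KO against WT that spread also holds any difference of the KO effect between the series. The share of 0.248% of all genes fell short of the nominal 0.05 level itself. A lack of calls is therefore weak evidence of no difference.

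**Figure D2:**
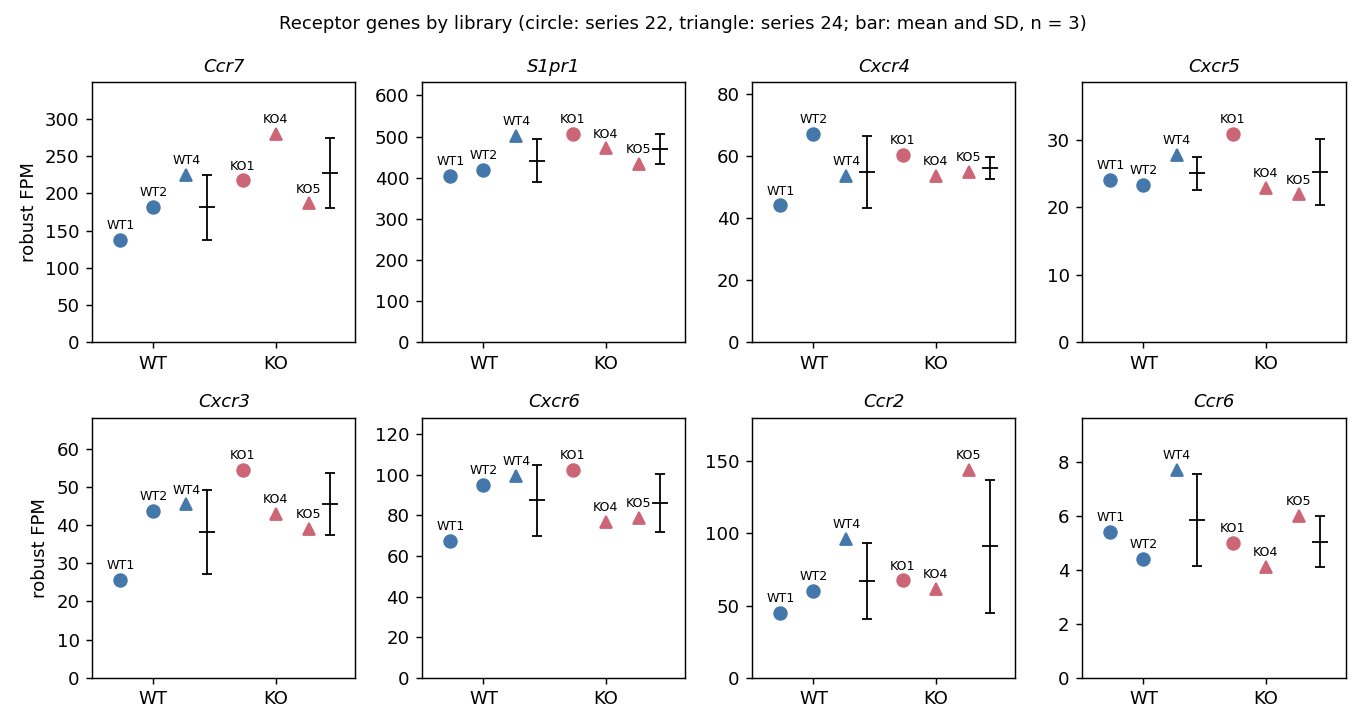
Robust FPM of the 8 receptor genes in each library, by genotype (WT blue, KO red) and library series (circles 22, triangles 24), with the mean and SD of the 3 libraries beside them. The WT and KO points overlap in all 8 panels, WT 1 is lowest in 6 of them, and KO 5 stands above the rest for Ccr2 at 144.1.

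Among the receptors of lymph node homing and egress, Ccr7 binds CCL19 and CCL21, which line the T cell zones. WT 1, WT 2 and WT 4 had 137.3, 182.2 and 224.6, the order also used for the genes below, against 217.3, 279.3 and 186.4 for KO 1, KO 4 and KO 5. KO 4 was highest and WT 1 lowest, 2.03-fold apart, and the groups overlapped. Mean WT was 181.4 ± 43.7 against a mean KO of 227.7 ± 47.3 (SD, n = 3), and the log2 difference was 0.24 (SE 0.200, 95% interval -0.22 to 0.70). It was 0.46 within series 22 and 0.023 within series 24. Without WT 1 the difference was 0.12.

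S1pr1, the receptor through which lymphocytes find their way out of lymphoid organs, had the smallest fold range of the 8, 1.253 between the lowest and the highest library. The WT libraries had 403.4, 419.2 and 501.8, against 505.4, 471.2 and 432.8 for KO. KO 1 and WT 4 were highest and the groups overlapped, with means of 441.5 ± 52.8 for WT against 469.8 ± 36.3 for KO (SD, n = 3). The log2 difference was 0.073 (SE 0.130, 95% interval -0.23 to 0.37), at 0.30 within series 22 and -0.15 within series 24.

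Cxcr4 responds to CXCL12 and holds cells in bone marrow and other niches. It measured 44.0, 66.9 and 53.6 in WT and 60.2, 53.4 and 54.8 in KO, so that both extremes of the 6 libraries, WT 1 and WT 2, were WT. The log2 difference was 0.081 (SE 0.170, 95% interval -0.31 to 0.47), at 0.15 within series 22 and 0.013 within series 24.

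Cxcr5 guides follicular helper T cells and B cells to CXCL13 in follicles. Its values were 24, 23.3 and 27.8 in WT and 30.8, 22.9 and 21.9 in KO. KO 1 was highest and the other KO libraries were lowest, so that the WT values lay between them. The means were 25.0 ± 2.42 and 25.2 ± 4.88 (SD, n = 3), and the log2 difference was 0.034 (SE 0.166, 95% interval -0.35 to 0.42). It was 0.37 within series 22 and -0.31 within series 24. The summed B cell markers were likewise highest in KO 1, at 738.3, and lowest in KO 4, as was Ighm, which measured 438.0, 456.1 and 445.8 in WT and 665.2, 308.0 and 533.2 in KO. Of the 12 B cell markers tested, 2 were highest in KO 1. The part of B cells in the Cxcr5 values was not tested.

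Cxcr3, a receptor of Th1 and memory cells for the interferon-induced chemokines CXCL9, CXCL10 and CXCL11, measured 25.6, 43.7 and 45.5 in WT and 54.6, 43.0 and 39.0 in KO. WT 1 was well below the other 5 libraries and KO 1 above them, 2.13-fold apart. Mean WT was 38.3 ± 11.0, against 45.5 ± 8.10 for KO (SD, n = 3). The log2 difference of 0.27 (SE 0.251, 95% interval -0.31 to 0.86) was 0.70 within series 22 and -0.15 within series 24, and it was 0.050 without WT 1.

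Cxcr6 binds CXCL16 and marks tissue-resident and effector T cells, NKT cells and some innate lymphocytes. It measured 67.3, 95.2 and 99.6 in WT and 102.5, 76.9 and 78.6 in KO. WT 1 was lowest and KO 1 highest, and the means of 87.4 ± 17.5 and 86.0 ± 14.3 (SD, n = 3) were close. The log2 difference was -0.00035 (SE 0.196, 95% interval -0.46 to 0.45), made up of 0.35 within series 22 and -0.36 within series 24. Fyco1, the gene around it, had its 3 highest values in the 3 libraries of series 24 and did not share this order.

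Ccr6, the receptor for CCL20 on Th17 cells, regulatory T cells and B cells, was the least abundant member. It measured 5.4, 4.4 and 7.7 in WT and 5.0, 4.1 and 6.0 in KO, with the highest value in WT 4 and the lowest in KO 4. The log2 difference was -0.28 (SE 0.228, 95% interval -0.80 to 0.25), at 0.033 within series 22 and -0.58 within series 24. Leaving out WT 4 returns the value within series 22 by construction.

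Ccr2 had the widest range of the 8, 3.22-fold between the lowest and the highest library. This receptor for CCL2 brings monocytes and some effector T cells into inflamed tissue. It measured 44.8, 60.2 and 96.0 in WT and 67.4, 61.6 and 144.1 in KO, with KO 5 well above the rest and WT 4 next. The means were 67.0 ± 26.3 and 91.0 ± 46.0 (SD, n = 3), and the log2 difference was 0.17 (SE 0.309, 95% interval -0.54 to 0.89). It was 0.37 within series 22 and -0.026 within series 24, and without KO 5 it was -0.060.

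Ccr2 was lowest in WT 1, as were 12 of the 13 myeloid markers, beside 46% of all genes. Csf1r, the macrophage colony-stimulating factor receptor, measured 50.3, 77.4 and 173.3 in WT and 119.2, 115.6 and 227.9 in KO, and ordered the 6 libraries exactly as Ccr2 did. The summed level of the 13 myeloid markers was 305.7 to 1111 in WT and 766.3 to 1614 in KO. This sum, like Adgre1 and Lyz2, differed from Ccr2 in order only in having KO 4 above KO 1. Other markers of the list departed further from that order. The share of all genes with the order of Ccr2 was not counted. Ly6c2 measured 20.5, 40.4 and 37.3 in WT and 39.2, 25.9 and 47.9 in KO. Itgam was lowest in WT 2, at 1.3, against 2.7 in WT 1. All 13 markers had a mean of at least 1. Vcam1 and Lyz2 were their most abundant genes, and Lyz2 ran from 19.0 in WT 1 to 482.5 in KO 5. Ccr3, an eosinophil and Th2 receptor gene encoded near Ccr2, ordered the libraries as Ccr2 did. It measured 11.6, 19.8 and 45.8 in WT and 37.0, 32.1 and 50.7 in KO. Granulocyte markers summed to 102.0 in KO 5 and 9.2 to 52.1 elsewhere. The part of myeloid cells in the Ccr2 values was not tested.

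**Figure D3:**
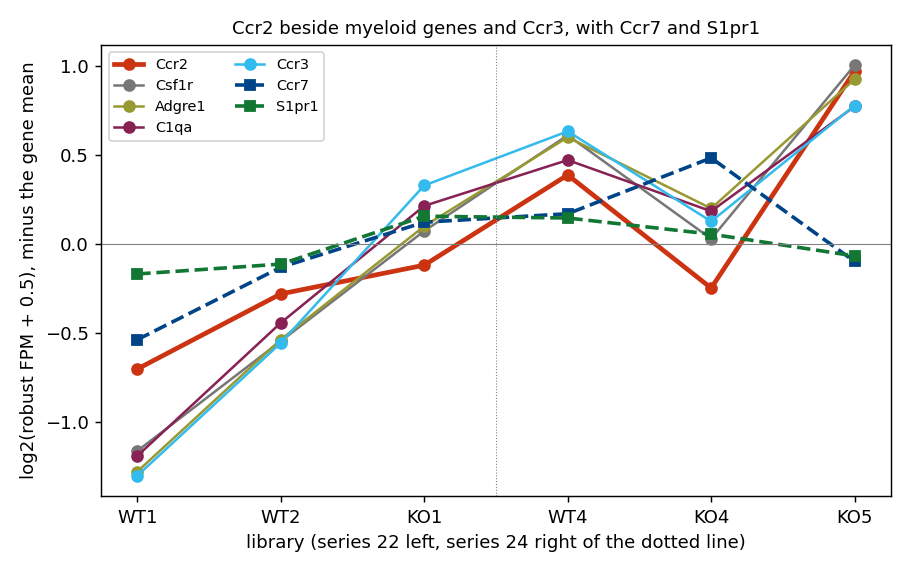
Log2(robust FPM + 0.5) of each gene minus its own mean, by library (lines only join the points of a gene). Ccr2, Csf1r, Adgre1, C1qa and Ccr3 are lowest in WT 1 and highest in KO 5, whereas Ccr7 peaks in KO 4 and S1pr1 in KO 1.

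The genes whose pattern over the 6 libraries was most like a member's were taken from all genes tested, by the root mean square difference of their centred log2 values. For Ccr2 they were Ptgs1, Gm15922 and Pstpip2, at 0.077 to 0.082, where Ccr2 itself had an SD of 0.59 on this scale. For Ccr7 they were Cd82, Retreg2 and Ephb6 (0.031 to 0.052, SD of Ccr7 0.34), and for S1pr1 Tmem9b, Cyth2 and Mrps23 (0.021 to 0.022, SD 0.14). Cxcr6 was followed most closely by Tnfsf14, which encodes the TNF family member LIGHT, then by Hist4h4 and Sptssa (0.022 to 0.049, SD 0.24). Tnfsf14 measured 14.7, 20.9 and 21.2 in WT and 22.2, 16.6 and 17.5 in KO. The nearest to Cxcr5 were Tnfrsf9, the gene for the costimulatory receptor 4-1BB, Gm10642 and Qpct (0.042 to 0.053, SD 0.19). Cxcr3 was nearest to the small nucleolar RNA genes Snora57 and Snord17 and to Tmem203 (0.031 to 0.050, SD 0.36). Cxcr4 was nearest to AA474408, Cmc2 and Rps25-ps1 (0.037 to 0.056, SD 0.20), and Ccr6 to Gm43039, Bmf and Pbx4 (0.093 to 0.098, SD 0.30). These names were picked from 14944 genes over 6 libraries and are a description.

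The difference between KO and WT was smaller or more negative in series 24 than in series 22 for 8 of 8 members. The same sign was found for 71.6% of all genes, so it was not particular to the members. Among lists described below it held for 12 of 12 selectins and integrins, 13 of 14 transcription factors and 23 of 24 coupling genes. It also held for 11 of 11 T cell markers, 6 of 9 other chemokine receptors and 7 of 11 other egress genes. The difference of the 2 differences had a median of -0.53 over the members and -0.21 over all genes, and limma called 0 members beside 0% of all genes. At an unadjusted p under 0.05 there were 2.47% of all genes and, among the members, Cxcr5 alone (-0.68, SE 0.215, limma adjusted p = 0.678). For S1pr1, Cxcr5, Cxcr3 and Cxcr6, KO 1 was above both WT libraries of series 22, while KO 4 and KO 5 were both below WT 4. Related lists showed that pattern too, in 8 of 14 transcription factors, 6 of 12 selectins and integrins and 11 of 24 coupling genes. It was shown by 2 of 9 other chemokine receptors. The 4 of 8 members compare with 31.5% of all genes. With median-of-ratios scaling, an alternative for this count chosen after seeing the data, it was left for Cxcr5 and Cxcr6, beside 11.0% of all genes. With total-sum scaling, added likewise, it was found for the same 4 members, beside 15.8% of all genes. With scaling to the spike-ins, also added, it was found for Cxcr4, Cxcr6, Ccr7 and Cxcr3, beside 25.5% of all genes.

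**Figure D4:**
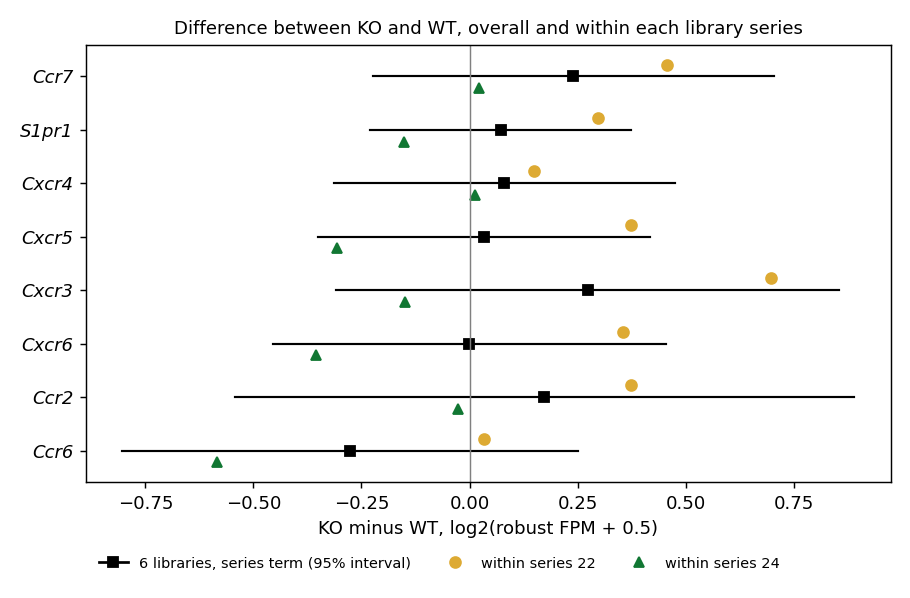
KO minus WT on the log2(robust FPM + 0.5) scale for the 8 receptor genes, from 6 libraries with its 95% interval (squares) and within series 22 (circles) and series 24 (triangles). Each interval crosses 0, and the value within series 24 lies left of that within series 22 for all 8 genes.

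Between the library series themselves, with genotype as the other term, limma called 0 of 8 members beside 0.141% of all genes. At an unadjusted p under 0.05 there were 0 members, beside 8.81% of all genes. The series overlapped for 8 of 8 members, where they did not overlap for 20.5% of all genes. Ccr2 had the largest coefficient of the members (series 24 minus series 22 0.68, SE 0.309, limma adjusted p = 0.585), and the other 7 lay between -0.11 and 0.30.

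WT 1 held the lowest value of 6 of the 8 members, all but Cxcr5 and Ccr6, beside 46% of all genes. KO 1 held the highest value of 4 members, beside 20.4% of all genes. The summed T cell markers were themselves lowest in WT 1, at 3380, and highest in KO 4, at 4376. Expressed as a share of that sum, only Ccr7, Cxcr3 and Ccr2 were lowest in WT 1 and the other 5 were lowest in KO 4. Without that division KO 4 held the lowest value of 1 member. On that scale S1pr1 ran from 10.8% to 11.9%, Ccr7 from 4.06% in WT 1 to 6.38% in KO 4, and Ccr2 from 1.33% in WT 1 to 3.97% in KO 5. WT and KO overlapped for 8 of 8 members on this scale too.

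The 6 lists of related genes gave no member that limma called, in KO against WT or between the series. Of 16 other chemokine receptors, 9 passed the filter of a mean of at least 1, with a median log2 difference of 0.14. The genes of smallest p were Ccr3 (0.54), Ccr4 (-0.19), a receptor of skin-homing and Th2 cells, and Ccr9 (-0.21), a receptor of gut-homing cells and thymocytes, each with a limma adjusted p of 1. Ccrl2, an atypical receptor, followed Ccr3 in the order of p between the series (-0.63, limma adjusted p = 0.595). Of the chemokines that the members recognise, 3 of 14 passed the filter (Mif at 0.13, Cxcl9 at -0.20 and Cxcl10 at -0.090). Ccl19, Ccl21a and Ccl21b, made by stromal cells of lymph nodes, were listed at 0 in all 6 libraries.

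Sphingosine and egress genes other than S1pr1 had 11 of 12 members tested, with a median of 0.086. Spns2, an exporter of sphingosine 1-phosphate, was at 0.56, the erythroid exporter Mfsd2b at 0.28 and Sgpl1, the lyase that degrades the lipid, at 0.10. Cd69, whose protein binds S1PR1 and removes it from the surface, measured 303.2, 365.7 and 369.4 in series 22 (WT 1, WT 2 and KO 1) and 216.0, 193.2 and 214.7 in series 24 (WT 4, KO 4 and KO 5). The series did not overlap, in either genotype. The coefficient was -0.74 (SE 0.127) and did not pass (limma adjusted p = 0.107). Of 15 alternatives it did not pass under 12. It passed under the other 3, without WT 1 (limma adjusted p = 0.0116), with median-of-ratios scaling (0.0160) and with a mean of at least 5 as filter (0.0442). S1pr1, in contrast, had a series coefficient of 0.062, and the KO minus WT difference of Cd69 was 0.032. Sphk1, a kinase that makes sphingosine 1-phosphate, measured 2.0 to 3.4 in series 22 and 0.4 to 0.6 in series 24 (-1.59, limma adjusted p = 0.239).

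Selectins and integrins of lymphocyte homing were all measured, with 12 of 12 tested and a median of 0.062. Itgae, the alpha chain that pairs with beta 7 to bind E-cadherin, was the 1 gene of the list whose groups did not overlap, at 9.2, 10.2 and 12.0 in WT and 12.5, 12.4 and 12.5 in KO. Its log2 difference of 0.20 did not pass (limma adjusted p = 1), and 1 of 12 genes compares with 2.88% of all genes. Selplg, a selectin ligand, was at 0.24 and Itgb7 at 0.18, while Itga6 had the smallest p of the list between the series (0.16, limma adjusted p = 0.730).

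Transcription factors linked to these receptors had a median of -0.0031 over 14 of 14 tested. Klf2, which drives S1pr1 and Ccr7 in resting T cells, measured 114.9, 166.4 and 175.3 in WT and 164.9, 143.6 and 157.9 in KO, a log2 difference of 0.017 (SE 0.178). WT 1 was again lowest, and the groups overlapped. The Th2 factor Gata3 was at -0.12, Bach2, a repressor of effector genes, at -0.11, and Klf3 had a series coefficient of 0.27.

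Genes of receptor coupling and desensitisation had 24 of 24 members tested, a median of 0.061 and 17 positive differences. Rgs2, an RGS protein gene, was at 0.29, the receptor kinase gene Grk6 at 0.16 and the GTPase gene Rac2 at 0.19. Between the series, 8 of the 24 genes did not overlap, or 33.3%, beside 20.5% of all genes. Rgs16 measured 5.9, 5.1 and 6.5 in series 22 and 2.5, 1.9 and 1.7 in series 24, a coefficient of -1.30 (limma adjusted p = 0.107). Rgs2 was at 91.0, 104.2 and 154.9 against 64.5, 52.0 and 71.4, a coefficient of -0.96 (limma adjusted p = 0.188). Both passed without WT 1 (limma adjusted p = 0.0431 for Rgs16 and 0.0322 for Rgs2). Under the other alternatives, 13 of 14 for Rgs16 and 14 of 15 for Rgs2, they did not pass.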

How the data were processed

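RNA of CD4 T cells was sequenced after ribosomal RNA removal with a stranded kit, per the labels' protocols. The deposited values, made by the authors, are robust FPM (fragments on a per-1e6 scale, RPM in kind), rounded to 1 decimal. Per the submitters' processing notes, build GRCm38.p3 and the tools DESeq, DESeq2, featureCounts and STAR were used, with no role or order given. Reads could not be recovered from the rounded values. The table's 92 ERCC rows were left out of the tests, and 6 value columns that match no sample were not used.

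Log2(robust FPM + 0.5) of the 14944 genes with a mean of at least 1 was modelled in R 4.3.3 by limma 3.58.1 on genotype and library series, with a mean-variance trend and Benjamini-Hochberg adjustment over all genes (threshold 0.05). A second fit added their interaction. The scripts were tested on simulated data. Alternatives were other pseudocounts, filters, scalings, variance models, a replicate block, no series term and each library left out.

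The members and lists were chosen with earlier results of these data known. Genes named from a list are the 3 of smallest p for KO against WT and the 2 between series, with Klf2 always named, and a few genes are not reported here. The genes of most similar pattern are the 3 of smallest root mean square difference. Other genes named beside a result are overlapping genes or cell type markers.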

Additional observations from a re-analysis of the deposited data

Results flagged for a closer look

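For S1pr1, Cxcr5, Cxcr3 and Cxcr6, every KO library was above every WT library in series 22 and below WT 4 in series 24. The difference of the KO effect, series 24 minus series 22 on the log2 scale, was -0.45 for S1pr1, -0.68 for Cxcr5, -0.85 for Cxcr3 and -0.71 for Cxcr6. None of these passed the limma test of that difference over all genes (adjusted p = 0.678 for each). The pattern was shown by 31.5% of the 14944 genes tested, by 15.8% with total-sum scaling, by 11.0% with median-of-ratios scaling and by 25.5% with ERCC scaling. Without rescaling, 8 of 14 transcription factors, 6 of 11 other egress genes and 6 of 12 selectins and integrins showed it as well. So did 11 of 24 coupling genes, 4 of 11 T cell markers and 2 of 9 other chemokine receptors. The pattern is therefore not particular to the members. It rests on 1 KO library in series 22 and 1 WT library in series 24.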

How the results depend on the processing

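Of 360 recomputed values of the 8 receptor genes, 323 kept their direction, 37 reversed and 0 crossed the limma threshold. KO against WT was recomputed under 17 alternatives, and no gene was called except in the fit with replicate number as a block. The deposited values are rounded to 1 decimal and their depth is unknown, which limits genes at low values such as Sphk1 and Ccr6.

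The replicate block in place of the series term called 1 gene higher and 4 lower in KO, and gave Cxcr6 0.12, Ccr2 -0.026 and Mfsd2b -0.086. Only numbers 1 and 4 are shared by the groups. Deviations from the genotype mean correlated at -0.16 (WT 1 and KO 1) and -0.41 (WT 4 and KO 4) across 14944 genes, which are not independent replicates. Differently numbered libraries ran from -0.36 (WT 1 and KO 5) to 0.49 (WT 1 and KO 4). These deviations also hold the library series, so they cannot show whether the numbers pair the libraries. Pairing by number is unknown, and the main fit does not use it.

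Without the series term, KO minus WT was -0.0028 for Cxcr5, -0.056 for Ccrl2, -0.21 for Cd69 and -0.029 for Rgs2. With total-sum scaling it was 0.031 for Cxcr6. With median-of-ratios scaling the series coefficient was -0.0078 for S1pr1 and -0.056 for Cxcr3, the difference of the KO effect between series was 0.058 for Cxcr4, and the crossed pattern was left in 2 members. With ERCC scaling KO minus WT was -0.15 for S1pr1, -0.14 for Cxcr4, -0.18 for Cxcr5, -0.045 for Ccr2, -0.20 for Klf2, -0.039 for Ccrl2, -0.12 for Sgpl1, -0.19 for Cd69, -0.092 for Mif, -0.011 for Itgae, -0.040 for Itgb7, -0.17 for Itga6, -0.16 for Klf3, -0.060 for Grk6 and -0.031 for Rac2. The series coefficient of Cxcr6 was then 0.018, and the KO effect differed between series for 2 genes called higher and 4 called lower.

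Between the series, limma called 1 gene higher and 20 lower in series 24. The higher count was 2 with a pseudocount of 0.1. Both counts were 6 and 48 with a mean of at least 5, 3 and 55 with median-of-ratios scaling, 3 and 8 with ERCC scaling, 0 and 0 without the mean-variance trend, and 3 and 34 with the robust variance model. Leaving out each library in turn gave 0 to 25 higher and 0 to 92 lower, where the lone library left in a cell of the design is assumed to vary like the others. The cause of these shifts was not tested.

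Leaving out each library in turn, KO minus WT ranged as follows where its sign turned: Ccr2 -0.06 to 0.46, Ccr3 -0.18 to 1.26, Ccr4 -0.38 to 0.0033, Ccr6 -0.58 to 0.033, Ccr9 -0.45 to 0.0086, Ccrl2 -0.13 to 0.44, Cd69 -0.085 to 0.15, Cxcl10 -0.35 to 0.17, Cxcr3 -0.15 to 0.70, Cxcr4 -0.057 to 0.20, Cxcr5 -0.31 to 0.37, Cxcr6 -0.36 to 0.35, Gata3 -0.28 to 0.040, Grk6 -0.046 to 0.37, Itga6 -0.11 to 0.20, Itgb7 -0.10 to 0.46, Klf2 -0.22 to 0.25, Klf3 -0.079 to 0.20, Mfsd2b -0.00040 to 0.52, Mif -0.073 to 0.32, Rgs16 -0.38 to 0.23, Rgs2 -0.081 to 0.67, S1pr1 -0.15 to 0.30, Sgpl1 -0.20 to 0.40 and Sphk1 -0.45 to 0.22. The series coefficient ranged likewise for Ccr6 -0.0084 to 0.61, Cxcr3 -0.41 to 0.44, Cxcr4 -0.22 to 0.033, Cxcr5 -0.45 to 0.23, Cxcr6 -0.40 to 0.31, Itgb7 -0.089 to 0.47, Mif -0.32 to 0.079 and S1pr1 -0.16 to 0.29. The difference of the KO effect between series ranged for Ccr2 -1.01 to 0.21 and Cxcr4 -0.43 to 0.16. That difference could not be fitted without KO 1 or WT 4, each the only library of its genotype in its series. For the same reason, KO minus WT without WT 4 equals the value within series 22 by construction. Without KO 1 it equals the value within series 24. Where these omissions set an end of a range, that end repeats the within-series value and is no separate check.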

Other observations

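In WT 1, the library that held the lowest value of 6 of the 8 receptor genes, the most abundant gene was Gm26870 at 84344.3 robust FPM, whereas in the other 5 libraries it was Rn7sk at 19843.4 to 27631.8. Pecam1 made up most of the stromal and endothelial marker sum, which was 254.4 to 307.1 with it and 2.0 to 19.9 without it.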
